A study of Mus musculus with 10 samples.

Results

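Genes of the choroid plexus epithelium (ChPe) were followed in RNA of the laser-captured cortical hem (CH) of mouse embryos at e13.5. The 10 genes were chosen by symbol, as genes known for the ChPe: *Ttr*, *Folr1*, *Car12*, *Slc4a5*, *Clic6*, *Kcnj13*, *Kcne2*, *Aqp1*, *Otx2* and *Foxj1*. Each of them matched 1 of the 52227 genes in the count table. The question put to the data was how these genes stand in wild-type and *Lmx1a-/-* CH, embryo by embryo. The groups were 5 wild-type embryos and 5 *Lmx1a-/-* embryos, which are homozygous for the inactivating drJ allele, all at embryonic day 13.5 and on a mixed C57Bl6, FVB and CD1 background. Both sexes were used, and each library is 1 embryo whose CH tissue was pooled over its sections. The CH was cut out in bright light after its borders had been found by Lmx1a staining of the neighboring sections. *Lmx1a* is lost in the whole animal, so the ChPe beside the CH, which also expresses the gene, is mutant too. Every library is therefore a mixture of the cells that fell within the captured area, and a lower level of a ChPe gene cannot be assigned to fewer ChPe cells or to less RNA per cell.

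The choroid plexus is a folded sheet of epithelium around a vascular stroma that secretes cerebrospinal fluid into the ventricles. In the dorsal telencephalon the ChPe and the CH lie next to each other at the cortical margin, arise under bone morphogenetic protein (BMP) signals, and both express *Lmx1a*. The ChPe differs from the CH in stopping division early, in forming a polarized transporting epithelium with multiple cilia, and in making large amounts of transthyretin. Among the 10 genes, *Ttr* (ENSMUSG00000061808) encodes this carrier of thyroid hormone and retinol, and *Folr1* (ENSMUSG00000001827, chr7:101858331-101870788 of GRCm38) the folate receptor that brings folate into the cerebrospinal fluid. *Car12* (ENSMUSG00000032373, chr9:66713686-66766845) encodes a membrane-bound carbonic anhydrase and *Slc4a5* (ENSMUSG00000068323, chr6:83219828-83304945) a sodium bicarbonate cotransporter. *Kcnj13* (ENSMUSG00000079436, chr1:87386363-87394729) encodes an inwardly rectifying potassium channel and *Kcne2* (ENSMUSG00000039672, chr16:92292389-92298129) an accessory subunit of potassium channels. *Aqp1* (ENSMUSG00000004655, chr6:55336432-55348555) encodes a water channel and *Clic6* (ENSMUSG00000022949, chr16:92485736-92541243) a member of the chloride intracellular channel family. *Otx2* (ENSMUSG00000021848, chr14:48657677-48673819) and *Foxj1* (ENSMUSG00000034227, chr11:116330704-116335399) encode transcription factors, the first required for choroid plexus formation and the second for motile cilia.

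RefSeq sequence before a transcription start of GRCm38.p6 was used for 6 of the 10 genes, namely *Kcnj13*, *Aqp1*, *Slc4a5*, *Car12*, *Otx2* and *Kcne2*, with 10 starts in all. The 250 bases before each start were searched on both strands for TAATCC, the core that Otx factors are known to bind, for TAATTA, the core of many homeodomain factors including the Lmx1 family, and for TGTTTAC, a core of forkhead factors. These letters occur in 6.25%, 4.84% and 3.17% of 32851 such windows of the genome. Among the 10 windows, matches were found only at *Otx2*, in 2 of its 4 starts. Windows without annotated exons are shown for *Car12*, whose embryos separated fully by genotype, for *Kcne2*, which had the lowest share of its wild-type level among the transporter and channel genes, for *Aqp1*, whose fold change was above 0, and for the first start of *Otx2*. They run from 5′ to 3′ on the strand of the gene and end at the base before the start, and capitals mark a match.
*Car12*, chr9:66713436-66713685, plus strand: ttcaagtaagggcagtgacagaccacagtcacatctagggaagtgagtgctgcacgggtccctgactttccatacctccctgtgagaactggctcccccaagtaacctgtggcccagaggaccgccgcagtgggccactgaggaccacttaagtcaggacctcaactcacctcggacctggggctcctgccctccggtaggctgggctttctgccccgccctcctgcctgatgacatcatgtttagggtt
*Kcne2*, chr16:92292139-92292388, plus strand: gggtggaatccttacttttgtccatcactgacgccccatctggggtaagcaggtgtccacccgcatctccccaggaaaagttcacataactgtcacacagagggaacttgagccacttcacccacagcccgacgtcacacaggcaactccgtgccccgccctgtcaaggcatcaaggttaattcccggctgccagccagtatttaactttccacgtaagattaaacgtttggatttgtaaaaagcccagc
*Aqp1*, chr6:55336049-55336298, plus strand: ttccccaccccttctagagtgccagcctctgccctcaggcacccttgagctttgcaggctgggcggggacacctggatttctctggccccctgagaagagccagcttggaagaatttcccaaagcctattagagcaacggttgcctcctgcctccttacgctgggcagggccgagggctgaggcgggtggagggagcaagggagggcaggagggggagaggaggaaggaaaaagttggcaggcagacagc
*Otx2*, chr14:48667645-48667894, minus strand: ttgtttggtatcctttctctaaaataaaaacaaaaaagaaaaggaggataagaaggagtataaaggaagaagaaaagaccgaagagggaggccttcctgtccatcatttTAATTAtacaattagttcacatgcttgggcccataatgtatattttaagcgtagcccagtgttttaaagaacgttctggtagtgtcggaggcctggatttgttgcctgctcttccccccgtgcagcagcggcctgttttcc
The TAATTA of the *Otx2* window lies 136 to 141 bases before the start. A match of letters is a description of the sequence, and the data hold no measurement of binding.

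Totals lay between 19145952 and 36462780 counts per library, and the 10 genes together took 0.0127% to 0.0482% of the counts of a wild-type library and 0.0147% to 0.0224% of a *Lmx1a-/-* library. The tissue carried its label, since the hem markers *Wnt3a*, *Wnt2b* and *Lmo2* were above 19 CPM in every library. Libraries differed in ways that matter for the results. One is that wild-type embryo 1 and the 5 *Lmx1a-/-* embryos carried transcripts from the Y chromosome (*Uty*, *Kdm5d*, *Eif2s3y*, *Ddx3y*), while wild-type embryos 2 to 5 carried *Xist*, so sex is nearly confounded with genotype. Another is that wild-type embryo 4 held RNA of stratified epithelium. A list of 8 epidermal genes written after this was seen (*Krt5*, *Krt14*, *Krt15*, *Trp63*, *Dsp*, *Dsg3*, *Dsc3* and *Pkp1*) summed to 1552 CPM in wild-type embryo 4, against 43.1 to 183 CPM in the other wild-type embryos and 6.23 to 120 CPM in *Lmx1a-/-* embryos. In addition, 5 muscle genes (*Myh3*, *Acta1*, *Actc1*, *Ttn* and *Mstn*), also listed afterwards, summed to 262 CPM in *Lmx1a-/-* embryo 1 and to 25.4 to 43.9 CPM elsewhere.

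In the *Lmx1a-/-* CH, 4 of the 10 ChPe genes fell and none rose in edgeR's quasi-likelihood test. The genes that fell were *Ttr*, the thyroid hormone carrier, *Car12* and *Slc4a5*, which serve bicarbonate chemistry, and *Foxj1*, the regulator of motile cilia. Of all 21664 genes tested, 4.02% were called, 2.29% lower and 1.72% higher, at the same threshold, an FDR under 0.1 over all genes. Fold changes were below 0 for 9 of the 10 genes, with a median log2 fold change of -1.09, while the median over all genes was -0.0049. At an unadjusted p under 0.05, 7 of the 10 genes were lower and 0 higher, beside 8.7% and 7.66% of all genes. At an FDR under 0.1, edgeR's likelihood ratio test called 6 lower and 0 higher (3.72% and 2.56% of all genes). DESeq2 called 5 lower and 0 higher (5.47% and 4.43% of the 17848 genes with an adjusted p). Fewer of the 10 passed with robust dispersion (2), scaling by library size only (2), an FDR under 0.05 (1), or the level of *Xist* (0) or of epidermal genes (0) as a covariate. The wild-type and *Lmx1a-/-* embryos did not overlap for 1 gene, *Car12*, while across all genes 2.27% separated with the mutants lower and 2.17% with the mutants higher. The call of 4 rests on single embryos: it was 1 without wild-type embryo 1 or 2 or without *Lmx1a-/-* embryo 2, 4 or 5, 2 without wild-type embryo 5, and 6 without wild-type embryo 3.

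**Figure D1:**
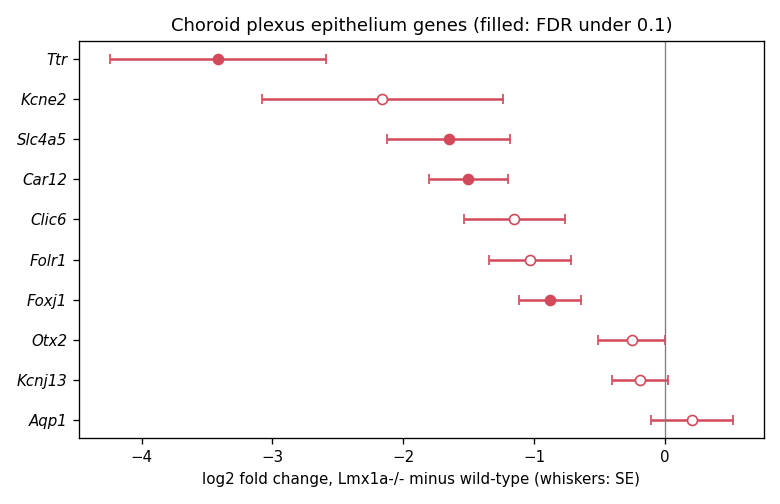
Log2 fold change of each gene, *Lmx1a-/-* minus wild-type (x axis), with whiskers of 1 SE from edgeR's quasi-likelihood fit over 5 embryos per genotype, and filled points where the FDR is under 0.1. *Ttr* lies farthest from 0 at -3.42 and *Aqp1* alone lies above 0, at 0.21.

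*Ttr*, which lies on chromosome 18 from base 20665280 to base 20674321, showed the largest change of the 10 genes and the largest spread between embryos. Its level in wild-type embryos 1 to 5 was 124, 164, 5.74, 21.3 and 77.2 CPM after TMM scaling. In *Lmx1a-/-* embryos 1 to 5 it was 1.56, 1.14, 15.1, 8.14 and 10.2 CPM. Wild-type embryos 1, 2, 4 and 5 lay above every mutant, and wild-type embryo 3 lay between mutants. The mutant mean was 9.23% of the wild-type mean, with a log2 fold change of -3.42 ± 0.82 (SE, n = 5 per genotype; adjusted p = 0.0512). When each embryo was left out in turn, the adjusted p ranged from 0.0101 to 0.116, and the call was lost without wild-type embryo 1 or 2 or without *Lmx1a-/-* embryo 2, 4 or 5.

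*Folr1*, the folate receptor gene, was found at 12.5, 13.6, 6.03, 9.91 and 13.2 CPM in wild-type embryos 1 to 5. In *Lmx1a-/-* embryos 1 to 5 it was found at 6.52, 3.42, 7.43, 2.46 and 7.06 CPM. As for *Ttr*, wild-type embryo 3 alone fell into the range of the mutants. The log2 fold change of -1.03 ± 0.31 (SE) did not pass the threshold (adjusted p = 0.115), but passed it without wild-type embryo 3 (adjusted p = 0.0555) and without *Lmx1a-/-* embryo 3 (adjusted p = 0.0887), in a range over left-out embryos of 0.0555 to 0.213.

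*Car12*, the carbonic anhydrase gene, was the only one of the 10 whose call did not depend on any single embryo. The wild-type levels were 11.1, 13.7, 10.1, 33.8 and 13.4 CPM. The levels in the mutants were 6.12, 4.57, 5.28, 6.06 and 6.85 CPM. The mutants thus lay within a narrow range below all wild-type embryos, and wild-type embryo 4, the library with epidermal RNA, lay far above the other wild-type embryos. The log2 fold change was -1.50 ± 0.30 (SE; adjusted p = 0.0214), and without wild-type embryo 4 it was -1.07 (adjusted p = 0.00818). The call held in all 10 fits that left out an embryo, with adjusted p from 0.00818 to 0.0607, and was lost with the covariates described later.

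*Slc4a5*, the bicarbonate cotransporter gene, was low, with 10 to 25 counts in a mutant library. Its wild-type levels were 2.65, 3.83, 0.853, 0.675 and 2.88 CPM, and its mutant levels 0.798, 0.543, 0.852, 0.554 and 0.696 CPM. Wild-type embryos 1, 2 and 5 stood apart, while wild-type embryo 3 was level with the highest mutant and wild-type embryo 4 lay among the mutants. The log2 fold change was -1.65 ± 0.47 (SE; adjusted p = 0.0946). Only without wild-type embryo 3 or 4 did the call remain, and over the 10 embryos left out the adjusted p ranged from 0.0425 to 0.211.

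*Clic6*, the chloride intracellular channel gene, had a wide spread among wild-type embryos, as *Ttr* did. Wild-type embryos 1 to 5 had 91.2, 93.9, 15.2, 35.8 and 79.2 CPM, whereas the mutants had 23.6, 19.2, 35.7, 33.8 and 29.3 CPM. Wild-type embryo 3 was the lowest of all 10 libraries and wild-type embryo 4 was level with the highest mutant. The log2 fold change of -1.15 ± 0.39 (SE) did not pass (adjusted p = 0.151), with a range of 0.00968 to 0.284 over left-out embryos, the lowest of which came without wild-type embryo 3 and was the only one past the threshold.

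Of the 2 potassium channel genes, *Kcne2* was low in every library and *Kcnj13* overlapped between genotypes. *Kcne2* had 2.28, 3.25, 0.618, 0.571 and 0.628 CPM in the wild-type embryos and 0.731, 0, 0.170, 0 and 0.696 CPM in *Lmx1a-/-* embryos. The counts of 0 in *Lmx1a-/-* embryos 2 and 4 allow levels of up to 0.163 and 0.0831 CPM (3 counts, counting error only). Wild-type embryos 1 and 2 carried most of the difference, whose log2 fold change was -2.16 ± 0.92 (SE; adjusted p = 0.261). *Kcnj13* had 4.26, 5.91, 3.26, 6.02 and 5.54 CPM in the wild-type embryos and 3.62, 4.89, 4.19, 4.40 and 4.77 CPM in mutants, which overlap over most of their range (log2 fold change -0.19 ± 0.21 SE, adjusted p = 0.712). *Kcnj13* lies within *Gigyf2*, a gene on the other strand, and shares 623 of its 1270 exon bases with exons of that gene. The strand setting of the counting is not given in the sources used here, so reads of *Kcnj13* and of *Gigyf2*, with means of 145 CPM (wild-type) and 165 CPM (mutants), may not have been told apart.

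*Aqp1*, the gene of a water channel of the apical membrane, was low in both genotypes. Wild-type embryos had 1.05, 1.85, 2.32, 1.56 and 2.03 CPM and *Lmx1a-/-* embryos 2.26, 2.07, 1.12, 2.05 and 2.68 CPM. The ranges overlapped nearly fully, and the log2 fold change was 0.21 ± 0.31 (SE; adjusted p = 0.803). It was the only gene of the 10 with a fold change above 0, and with the epidermal level as a covariate it was -0.0046.

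The 2 transcription factor genes differed in their calls. *Otx2* had 160, 144, 53.1, 107 and 189 CPM in wild-type embryos 1 to 5 and 80.3, 99.8, 118, 135 and 116 CPM in *Lmx1a-/-* embryos. Wild-type embryo 3 was the lowest library and the mutants lay between it and wild-type embryos 1, 2 and 5, with a log2 fold change of -0.25 ± 0.26 (SE; adjusted p = 0.679). *Foxj1* had 36.7, 47.3, 26.8, 25.4 and 35.3 CPM in the wild-type embryos and 22.7, 17.7, 28.3, 12.5 and 12.2 CPM in mutants. Only *Lmx1a-/-* embryo 3 reached into the wild-type range. The log2 fold change of *Foxj1* was -0.88 ± 0.24 (SE; adjusted p = 0.0801), and the adjusted p ranged from 0.0317 to 0.176 over left-out embryos, with the call lost without wild-type embryo 1, 2 or 5 or *Lmx1a-/-* embryo 2, 4 or 5.

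**Figure D2:**
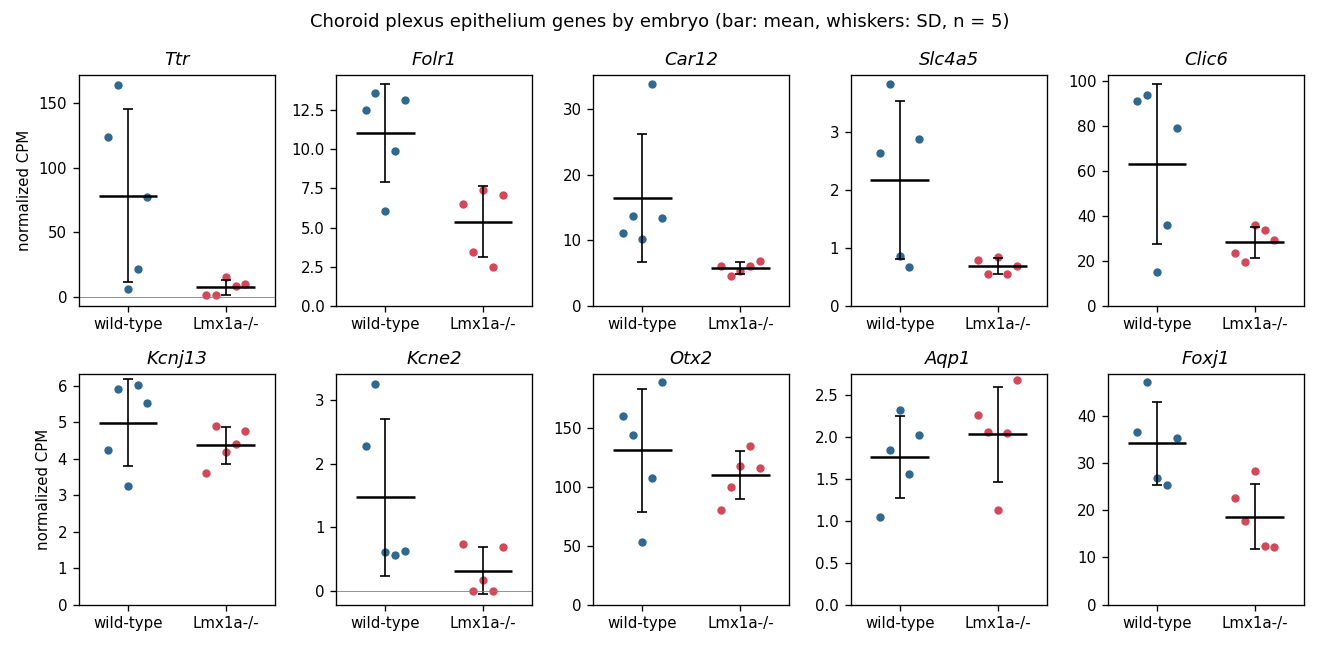
Normalized CPM (y axis, linear) of the 10 genes in each wild-type (blue) and *Lmx1a-/-* (red) embryo, with the mean as a bar and the SD as whiskers (n = 5 embryos per genotype). The mutants lie below all wild-type embryos for *Car12*, and in the other genes at least 1 embryo overlaps.

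Embryo by embryo, the wild-type group was not uniform. The summed level of the 10 genes was 445, 491, 124, 242 and 419 CPM in wild-type embryos 1 to 5 and 148, 153, 216, 205 and 190 CPM in *Lmx1a-/-* embryos 1 to 5. Without *Ttr*, the sums were 322, 327, 118, 221 and 341 CPM in the wild-type embryos and between 147 and 201 CPM in mutants. Wild-type embryo 2 was the highest of all 10 libraries in 6 genes. Wild-type embryo 3 was the lowest wild-type embryo in 6 genes and lay below every mutant in the sum. Relative to the wild-type mean of log2(CPM + 0.1), the mean over the 10 genes was -0.95 in wild-type embryo 3, which is inside the range of the mutants, -1.60 to -0.74.

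**Figure D3:**
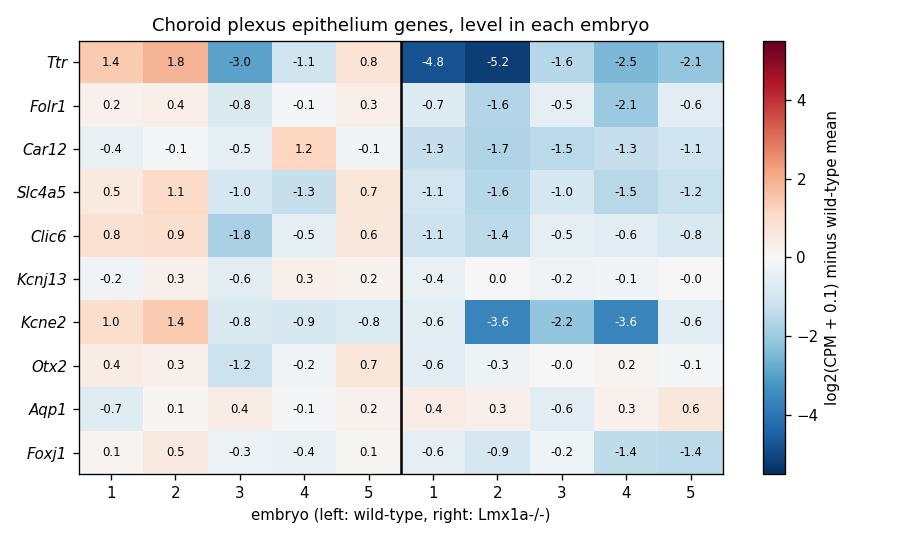
Level of each gene (rows) in each embryo (columns) as log2(CPM + 0.1) minus the mean of the 5 wild-type embryos, with red above and blue below that mean. Wild-type embryo 3 resembles the mutants in *Ttr* (-2.96) and *Clic6* (-1.76), while *Car12* stands out in wild-type embryo 4 (1.19).

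Among the genes themselves, *Ttr*, *Clic6*, *Otx2* and *Slc4a5* went together from embryo to embryo. After each genotype's mean was subtracted from log2(CPM + 0.1), the correlation over the 10 libraries was 0.93 for *Clic6* and *Otx2*, 0.92 for *Ttr* and *Clic6*, 0.83 for *Ttr* and *Otx2*, and 0.83 for *Slc4a5* and *Clic6*. The median over the 45 pairs was 0.33, 16 pairs were over 0.5 and 14 were below 0. *Aqp1* was negative with 8 of the other 9 genes, and *Car12* with 4 of them. The points share their library, and so its share of each tissue.

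Per kilobase of exon, the order of the levels differed between genotypes. In wild-type CH, *Ttr* came first (66.1 CPM per kb ± 56.4 SD), ahead of *Otx2* (31.0 ± 12.4), *Clic6* (16.1 ± 9.07) and *Foxj1* (13.1 ± 3.36). Neighbors in this order overlapped in range except *Foxj1* and *Folr1* (4.81 ± 1.37), and *Ttr* exceeded *Otx2* in 3 of 5 embryos only. *Kcnj13*, *Car12*, *Kcne2*, *Aqp1* and *Slc4a5* followed, from 3.94 down to 0.375 CPM per kb. In *Lmx1a-/-* CH, *Otx2* came first (26.0 ± 4.87 SD) without overlap with the next gene, and *Clic6* (7.24), *Foxj1* (7.12) and *Ttr* (6.10 ± 5.01) overlapped with each other. The mean of *Slc4a5* was the lowest in both genotypes, at 0.119 CPM per kb in mutants, where *Kcne2* exceeded it in 2 of 5 embryos only.

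Because only wild-type embryo 1 shares Y-linked transcripts with the mutants, it was also compared with them alone. In this embryo, 8 of the 10 genes were above every mutant, the exceptions being *Kcnj13* and *Aqp1*. How many of all genes lay above every mutant in this embryo was not counted. The 10 genes also come from 1 wild-type library, so the number is no test. The log2 fold changes against this embryo were -4.08 for *Ttr*, -1.69 for *Clic6* and -0.95 for *Car12*. They carry no test, since the spread in such a fit comes from the mutants alone, and the wild-type SD of *Ttr* was 66.9 CPM against 5.94 CPM in mutants. With the *Xist* level as a covariate over all 10 libraries, none of the 10 genes was called, and of all genes 30 were lower and 6 higher. The log2 fold changes in that fit were -3.98 for *Ttr*, -1.90 for *Slc4a5*, -1.65 for *Clic6*, -1.16 for *Folr1*, -0.96 for *Foxj1* and -0.91 for *Car12*. Their adjusted p ran from 0.250 for *Ttr* to 0.579 for *Car12*. Among wild-type embryos only embryo 1 had little *Xist* (1.01 CPM), so this fit leans on that embryo. It is not a second comparison independent of the first. With the epidermal level as a covariate, none of the 10 was called either, and the log2 fold changes were -3.58 for *Ttr* (adjusted p = 0.177) and -0.89 for *Car12* (adjusted p = 0.431). The part of sex in the fold changes was not tested, nor was that of the epidermal RNA beyond this fit.

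Most of the other genes known for the choroid plexus were not called. Of 56 listed, 53 were tested, 4 fell and 1 rose, beside 2.29% and 1.72% of all genes. The median log2 fold change was -0.32. At an unadjusted p under 0.05, where 8.7% of all genes were lower and 7.66% higher, 18 of them were lower and 2 higher. Among secreted proteins and carriers, 2 of 13 fell. *Igf2*, the growth factor that the choroid plexus releases into the fluid, was at 20.6, 18.9, 22.9, 56.8 and 13.7 CPM in the wild-type embryos and between 4.13 and 9.54 CPM in mutants (log2 fold change -2.07 ± 0.37 SE, adjusted p = 0.0102). Like *Car12* it was highest in wild-type embryo 4, without which the log2 fold change was -1.60 (adjusted p = 0.00781). *F5*, coagulation factor V, was at 2.26 to 6.94 CPM in wild-type and 0.380 to 1.76 CPM in mutant embryos (-1.96 ± 0.43 SE, adjusted p = 0.0324).

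None of 25 tested transporters, channels and uptake receptors fell in edgeR's quasi-likelihood test and 1 rose. At an unadjusted p under 0.05, 6 were lower and 2 higher, beside 8.7% and 7.66% of all genes. At the FDR threshold 3 were lower in edgeR's likelihood ratio test, beside 3.72% of all genes. In DESeq2 5 were lower, beside 5.47% of the 17848 genes with an adjusted p. The gene that rose was *Cubn*, which encodes the endocytic receptor cubilin, with 3.82 to 6.90 CPM in wild-type and 9.78 to 21.5 CPM in mutant embryos (log2 fold change 1.75 ± 0.22 SE, adjusted p = 0.00157). *Trpm3*, a cation channel gene known for strong choroid plexus expression, varied like *Ttr*, with 116, 178, 11.3, 34.8 and 104 CPM in the wild-type embryos and 4.99, 29.7, 24.9, 26.2 and 30.3 CPM in mutants. Its log2 fold change of -1.93 ± 0.60 (SE) did not pass (adjusted p = 0.124). Of 15 tested junction, keratin and other epithelial genes, 2 fell, namely *Sulf1*, a heparan sulfate editing enzyme (-1.54 ± 0.31 SE, adjusted p = 0.0210), and *Calml4*, a calmodulin-like protein (-1.37 ± 0.39 SE, adjusted p = 0.0988). *Sulf1* was at 318 to 1202 CPM in wild-type and 199 to 385 CPM in mutant embryos, above every level of the 10 genes. Which cells of the captured area made it was not tested. *Calml4* kept its call in 2 of the 10 fits that left out an embryo, while *Igf2*, *F5*, *Sulf1* and *Cubn* kept theirs in all 10. Keratin genes of simple epithelia, *Krt8* and *Krt18*, had adjusted p of 0.102 and 0.119. *Cdh1* of the same list, looked up afterwards, was at 29.4 CPM ± 45.3 (SD) in wild-type and 4.91 CPM ± 5.89 (SD) in mutant embryos (adjusted p = 0.186). The part of the epidermal RNA of wild-type embryo 4 in the fold changes of this list was not tested.

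Genes known for multiciliated cells, the program that *Foxj1* serves, were lower in part. Which cells of the captured area made these transcripts was not tested. Of 59 listed, 54 were tested, and 8 fell and none rose in edgeR's quasi-likelihood test, beside 2.29% and 1.72% of all genes. Fold changes were below 0 for 50 of them, and the median log2 fold change was -0.77. At an unadjusted p under 0.05, again beside 8.7% and 7.66% of all genes, 26 were lower and 1 higher, and none was higher in the likelihood ratio test or in DESeq2. *Dnah9*, an axonemal dynein heavy chain gene, was at 14.4, 17.0, 10.2, 12.7 and 17.5 CPM in the wild-type embryos and at 4.89, 6.68, 6.44, 7.20 and 6.68 CPM in mutants, which did not overlap (log2 fold change -1.17 ± 0.18 SE, adjusted p = 0.00405). *Cfap65*, of the ciliary axoneme, was at 2.07 to 6.81 CPM in wild-type and 0.591 to 0.988 CPM in mutant embryos (-2.08 ± 0.36 SE, adjusted p = 0.00841). *Gmnc*, the geminin relative that starts multiciliation upstream of *Foxj1*, was at 345, 302, 144, 227 and 361 CPM in the wild-type embryos and at 124, 151, 200, 179 and 143 CPM in mutants (-0.79 ± 0.21 SE, adjusted p = 0.0759). *Ccno*, needed to make the many basal bodies of such cells, had a log2 fold change of -0.58 ± 0.15 (SE; adjusted p = 0.0637) and *Wdr63*, of the inner dynein arms, -1.62 ± 0.43 (SE; adjusted p = 0.0726). *Dnah9* and *Cfap65* kept their calls in all 10 fits without 1 embryo, and the count of 8 ranged from 2 to 15 over them. It was 2 without wild-type embryo 1, 2 or 5 or *Lmx1a-/-* embryo 4, 3 without *Lmx1a-/-* embryo 1 or 2, 4 without *Lmx1a-/-* embryo 5, and 15 without wild-type embryo 3.

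**Figure D4:**
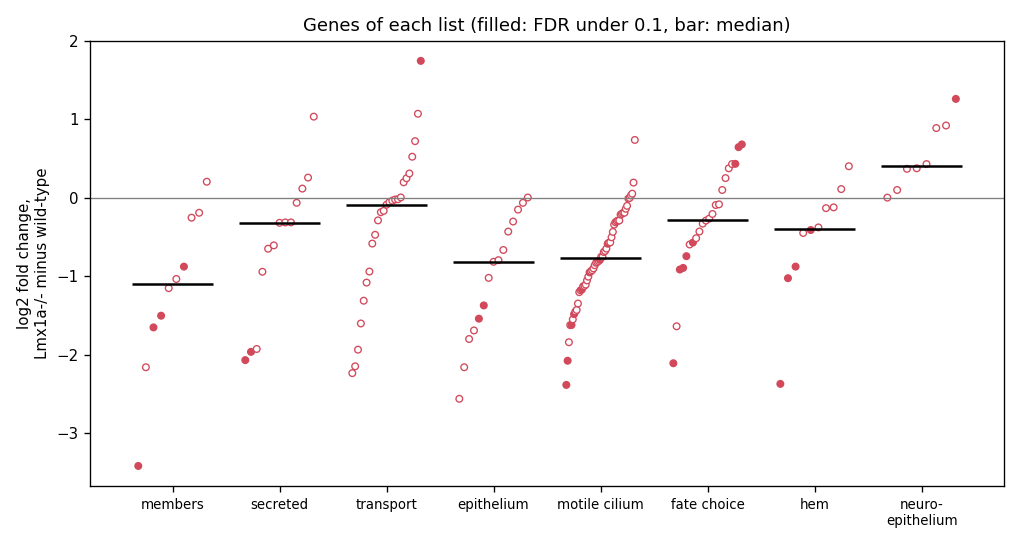
Log2 fold change, *Lmx1a-/-* minus wild-type (y axis), of each tested gene of 8 lists (x axis, genes sorted within a list), filled where the FDR is under 0.1, with the median as a bar. Medians are -1.09 for the 10 ChPe genes (members), -0.32 for secreted, -0.088 for transport and -0.82 for epithelial genes. They are -0.77 for motile cilium, -0.28 for fate choice, -0.39 for hem and 0.40 for cortical neuroepithelium genes.

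Genes known for the choice between choroid plexus, hem and cortex moved in both directions. Of 24 listed, 22 were tested, 5 fell and 3 rose, beside 2.29% and 1.72% of all genes. The 5 that fell were the BMP ligand gene *Bmp7* and *Msx1*, *Id2*, *Id1* and *Msx2*, which are known to respond to BMP. They are 5 of the 12 BMP ligand, receptor and response genes on the list, a grouping made afterwards, and the other 7 were not called. *Msx1*, a homeobox gene of the dorsal midline, was at 35.8, 42.4, 15.4, 45.5 and 33.4 CPM in the wild-type embryos and at 3.19 to 16.9 CPM in mutants, the highest being *Lmx1a-/-* embryo 4 (log2 fold change -2.11 ± 0.39 SE, adjusted p = 0.0136). *Bmp7* was at 61.4 to 142 CPM in wild-type and 43.6 to 65.4 CPM in mutant embryos (-0.91 ± 0.19 SE, adjusted p = 0.0228), and *Id2* fell by 0.57 on the log2 scale (adjusted p = 0.0452). *Id1* and *Msx2* lie outside the rule for named genes and are given because their values were seen to pass (log2 fold changes -0.89 and -0.74, adjusted p = 0.0578 and 0.0752). *Bmp4*, likewise looked up afterwards, was at -0.59 (adjusted p = 0.190).

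The 3 genes that rose were *Gli3* (log2 fold change 0.43 ± 0.079 SE, adjusted p = 0.0120), *Emx2* (0.65 ± 0.14 SE, adjusted p = 0.0356) and *Lmx1a* itself. The study describes *Gli3* as expressed both within the CH and outside it. *Lmx1a* was at 79.8, 80.0, 45.6, 59.7 and 90.8 CPM in the wild-type embryos and at 89.9, 102, 122, 145 and 111 CPM in mutants (0.68 ± 0.17 SE, adjusted p = 0.0658), so the mutant allele was transcribed. *Lmx1a* lost its call without wild-type embryo 4 (adjusted p = 0.126), in a range of 0.0478 to 0.157 over left-out embryos and with 6 of 10 fits past the threshold. *Msx1*, *Bmp7*, *Gli3* and *Emx2* kept their calls in all 10, *Id2* in 8, *Id1* in 4 and *Msx2* in 3.

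The tissue around the ChPe genes differed between libraries as well. Of 10 hem genes, 4 fell, beside 2.29% of all genes. They were *Lmo2*, *Wnt2b*, *Wnt9a* and *Wnt5a*, with a log2 fold change of -2.37 ± 0.20 (SE) for *Lmo2* (adjusted p = 8.76e-05). *Lmo2* and *Wnt2b* kept their calls in all 10 fits without 1 embryo, *Wnt9a* in 9 and *Wnt5a* in 2. All 8 cortical neuroepithelium genes had a fold change above 0 and 1 rose, *Fezf2* (1.26 ± 0.11 SE, adjusted p = 0.000124). Their log2 fold changes ran from 0.0027 to 1.26, and 3 were higher at an unadjusted p under 0.05, beside 7.66% of all genes. Their sum was 480 to 1090 CPM in wild-type and 872 to 1254 CPM in mutant embryos, and its highest wild-type value was that of wild-type embryo 3, the embryo low in ChPe genes. Wild-type embryo 3 also had the lowest hem sum of all libraries, 2420 CPM, and the highest sum of stroma and meninges genes, 959 CPM.

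Of 12 stroma and meninges genes, 3 fell, beside 2.29% of all genes. They were *Pdgfra*, *Lum* and *Dcn*, which kept their calls in 9, 4 and 3 of the 10 fits without 1 embryo. None rose in edgeR's quasi-likelihood test, with 1 higher at an unadjusted p under 0.05, *Slc6a13* (log2 fold change 1.92, adjusted p = 0.188), and 1 called higher in each of the likelihood ratio test and DESeq2. The sums of the list were 367 to 959 CPM in wild-type and 273 to 548 CPM in mutant embryos. None of 9 red blood cell genes passed in edgeR's quasi-likelihood test, 6 were lower at an unadjusted p under 0.05, 4 were called lower in each of the likelihood ratio test and DESeq2, and their sum was 643 to 1489 CPM in wild-type and 268 to 581 CPM in mutant embryos, which did not overlap. None of 9 endothelial genes passed in any of these tests, with 1 lower at an unadjusted p under 0.05 and sums of 20.7 to 80.1 and 21.9 to 48.9 CPM. Retinal pigment epithelium, which also expresses *Ttr*, *Otx2* and *Kcnj13*, was low by its defining genes, since *Rpe65*, *Tyr* and *Tyrp1* had 13, 33 and 6 counts over all libraries. *Dct*, *Mitf* and *Rlbp1*, which other cells also express, reached 17.7, 9.25 and 9.53 CPM. The list summed to 11.8 to 29.0 CPM in wild-type and 15.6 to 31.6 CPM in mutant embryos, with 0 of 5 tested genes past the threshold in edgeR's tests or DESeq2 or at an unadjusted p under 0.05. Of 7 tested diencephalon genes, 1 fell, *Lhx1* (log2 fold change -1.36 ± 0.27 SE, adjusted p = 0.0210), which Cajal-Retzius cells born in the CH are also known to express, and the sums were 116 to 191 and 108 to 178 CPM. Of 7 tested epidermal genes, 1 was called lower, *Pkp1* (adjusted p = 0.0704), which was at 40.7 CPM in wild-type embryo 4 and at 1.56 CPM or less elsewhere. All 7 were lower at an unadjusted p under 0.05, 4 in the likelihood ratio test and 1 in DESeq2, with a median log2 fold change of -3.28. These counts are no test of genotype, since the list was written because wild-type embryo 4 was seen to be high in it. Neither of the 2 muscle genes tested, also listed afterwards, passed in edgeR or DESeq2, with 1 higher at an unadjusted p under 0.05. The part of these tissues in the fold changes of the ChPe genes was not tested.

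**Figure D5:**
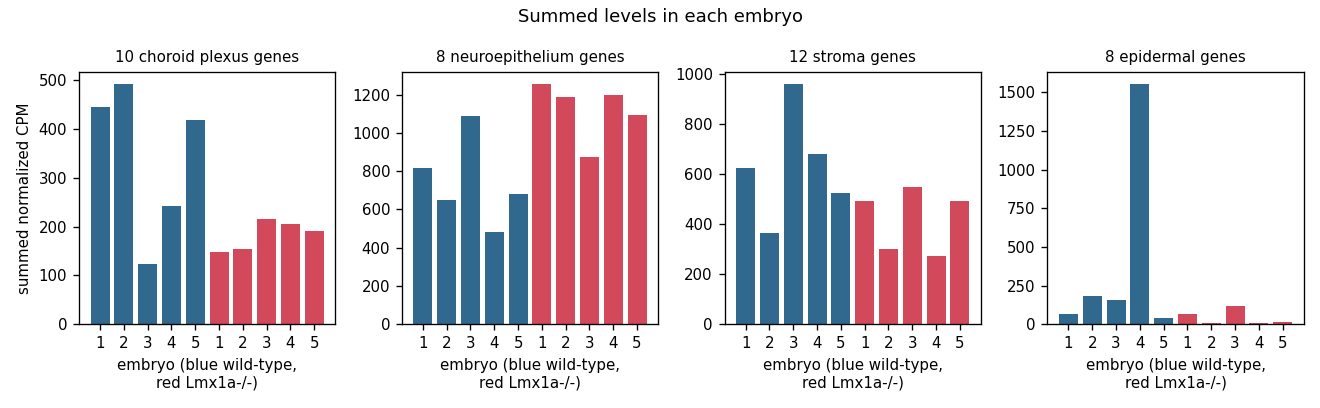
Summed normalized CPM (y axis, from 0) in each embryo (x axis) for the 10 ChPe genes and for the neuroepithelium, stroma and epidermal lists, wild-type in blue and *Lmx1a-/-* in red. Wild-type embryo 3 is low for ChPe genes (124 CPM) and high for stroma genes (959 CPM), and wild-type embryo 4 holds 1552 CPM of epidermal genes.

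Of 25 genes that overlap or flank the 10 ChPe genes, 21 were tested and 1 was called, beside 4.02% of all genes. This was *Efhd1*, which lies 75523 bases from *Kcnj13* and rose from low levels (0.259 to 1.04 CPM in wild-type and 1.60 to 5.51 CPM in mutant embryos, adjusted p = 0.0696). *Mthfd2*, which ends 745 bases from *Slc4a5*, had a log2 fold change of -0.24 ± 0.17 (SE; adjusted p = 0.536), and *Rnf157*, 953 bases from *Foxj1*, 0.02 ± 0.088 (SE; adjusted p = 0.938). *Folr2*, the folate receptor gene 1136 bases from *Folr1*, was at 0.259 to 1.40 CPM in wild-type and 0.0997 to 0.557 CPM in mutant embryos (adjusted p = 0.444). *Kcne2* and *Clic6* lie on the same chromosome, 16, with 187606 bases between them. *Dsg2*, the desmosomal cadherin gene beside *Ttr*, was at 75.4 CPM in wild-type embryo 4 and at 9.43 CPM or less elsewhere, where *Ttr* was at 21.3 CPM in that embryo.

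Over the 10 libraries as they stand, the gene whose level was most like the mean of the 10 genes was *Htr2c*, the serotonin receptor gene known for its strong expression in choroid plexus. The correlation of log2(CPM + 0.1) over the 10 libraries was 0.979, and the level of *Htr2c* was 4.72 CPM ± 5.38 (SD, n = 5) in wild-type and 0.315 CPM ± 0.273 (SD, n = 5) in mutant embryos (log2 fold change -3.86 ± 0.90 SE, adjusted p = 0.0438). *Adamts5*, a matrix protease gene, followed at 0.964 (41.8 CPM ± 19.5 SD and 10.3 CPM ± 3.37 SD). The next were *Gm7694*, *Zfp36l2*, *Il1rap*, *Dtna*, *Pde1a*, *Hba-x*, *Ccno* and *Sulf1*, from 0.955 to 0.935. With the genotype means subtracted, *Tnks2* (0.965) and *Gm47993* (0.962) were closest, with log2 fold changes of 0.02 (adjusted p = 0.926) and 0.26 (adjusted p = 0.776). *Htr2c* (0.958), *Zfp36l2* (0.927) and *Adamts5* (0.919) were again among the 10 closest, together with *Nkap*, *Katnal2*, *Dnah6*, *Tox2* and *Gm37885*. These are descriptions over libraries that share the same tissue pieces.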

How the data were processed

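RNA of the CH of 5 wild-type and 5 *Lmx1a-/-* embryos was sequenced, with 1 library per embryo and genotypes taken from the labels. Per the labels, RNA was purified with a Pico Pure kit and libraries were made with a SMARTER kit. The authors checked reads with FastQC 0.11.8, trimmed them with Trimmomatic, aligned them to GRCm38 with STAR 2.7.1a and deposited HTSeq 0.11.2 counts per Ensembl gene without normalization. The table has 52508 rows, of which 281 exact repeats were dropped.

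The filter of the study's methods was kept, a minimum of 10 counts in 3 or more libraries. R 4.3.3 with edgeR 4.0.16 (limma 3.58.1) was used for TMM scaling, a trended dispersion and the quasi-likelihood test, with Benjamini-Hochberg adjustment over all 21664 genes and an FDR under 0.1. Which edgeR test the authors used is not given in the sources used here. CPM are TMM-scaled, and the SE is the log2 fold change divided by the square root of F. Intervals and floors cover counting error only. Positions are those of GENCODE M21, counted from 1, and 52083 genes had a symbol. Scripts were tested on simulated counts.

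The 10 genes and the lists were chosen with earlier results of these data known. The names given are the 10 genes, up to 5 genes of each list with the smallest p, overlapping and flanking genes, the 10 genes most like the mean of the 10 in either way of centering, *Lmx1a*, *Xist* and Y-linked genes. Exceptions are named as such. Lists held 56 choroid plexus genes (14 secreted, 26 transport, 16 epithelial), 59 motile cilium, 24 fate, 10 hem, 8 neuroepithelium, 11 red blood cell, 12 stroma, 9 endothelial, 8 pigment epithelium and 8 diencephalon genes. The epidermal and muscle lists were written after the data were seen. Alternatives were edgeR's likelihood ratio test, DESeq2 1.42.0, robust dispersion, other scaling and filters, a block for embryo number, a *Xist* covariate, an FDR of 0.05 and each embryo left out. Added after seeing the data were edgeR's newer dispersion method, embryos with Y-linked transcripts only, and an epidermal covariate, the log2 of the summed CPM of the 8 genes.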

Additional observations from a re-analysis of the deposited data

Results flagged for a closer look

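In 52 groups of 5 embryos (each of the 10 genes and each summed list, by genotype), the gap of the highest or lowest embryo to its neighbor was compared with Dixon's critical value of 0.71, which chance exceeds in about 1 of 20 groups. An embryo stood apart in 5 groups. *Car12* was at 33.8 CPM in wild-type embryo 4, against 13.7 CPM in the next. The epidermal list summed to 1552 CPM in the same embryo, against 183 CPM in the next, and was written because this had been seen. The muscle list, also written afterwards, summed to 262 CPM in *Lmx1a-/-* embryo 1, against 42.1 CPM in the next. Red blood cell genes summed to 1489 CPM in wild-type embryo 1, against 788 CPM in the next. Endothelial genes summed to 21.9 CPM in *Lmx1a-/-* embryo 4, against 45.6 CPM in the next higher. The causes were not tested.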

How the results depend on the processing

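All counts below are genes lower in *Lmx1a-/-* embryos unless said otherwise, against 497 of all genes (373 higher), 4 of the 10 ChPe genes, 4 of 53 further choroid plexus genes (1 higher), 8 motile cilium genes and 5 fate genes (3 higher). Leaving out each embryo gave 261 to 604 of all genes (190 to 455 higher), 1 to 6 of the 10, 3 to 9 further choroid plexus genes (1 to 1 higher), 2 to 15 motile cilium genes and 2 to 6 fate genes (2 to 4 higher). The likelihood ratio test called 805 of all genes, 13 further choroid plexus and 14 motile cilium genes, and DESeq2 called 976 (790 higher), 15 and 18. Of the 10 genes, 2 were called with robust dispersion and 2 with scaling by library size only. The looser filter (any count) and the stricter one (1 CPM in 5 libraries, which left out *Slc4a5* and *Kcne2*) each called 7 further choroid plexus genes, and the newer dispersion method 9. An FDR of 0.05 left 251 of all genes (197 higher), 1 of the 10, 2 motile cilium and 3 fate genes. The *Xist* covariate left 30 (6 higher) and 0 genes of these 4 lists in either direction. The epidermal covariate left 154 (67 higher), 0 of the 10, 1 motile cilium and 1 fate gene, with 0 fate genes higher. Embryos with Y-linked transcripts alone left 86 (44 higher), 2 of the 10, 1 further choroid plexus gene (0 higher), 1 motile cilium gene and 0 fate genes in either direction. The last comparison has 1 wild-type embryo and takes its spread from the mutants alone, so its counts are no test, and the causes of the other shifts were not tested. *Kcnj13* changed sign with the *Xist* covariate (0.043) and among embryos with Y-linked transcripts (0.033), and *Aqp1* with the epidermal covariate (-0.0046). Other fold changes of the 10 genes kept their sign in all settings run.

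Embryo numbers did not pair the samples: the correlations of same-numbered embryos were 0.042, 0.012, -0.16, 0.0068 and -0.011, and no embryo matched its own number best. With the number as a replicate block, 248 genes were higher, and 2 of the 10 ChPe genes, 4 motile cilium and 3 fate genes were lower. Depth limits *Kcne2*, which had 0 counts in 2 libraries, and p-values cover the spread between these embryos.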
